A study of Mus musculus with 9 samples.

Results

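The transcripts of 9 genes used to sort neural stem cells (NSCs) from the adult subventricular zone (SVZ), the germinal layer along the lateral ventricles, were followed across 3 culture conditions. The genes were Vcam1, Prom1, Cd9, Cd24a, Cd44, Cd81, Cd151, Fut4 and Thbs4. They were found by matching Ensembl identifiers to mouse gene symbols, and all 9 were present among the 55704 genes of the expression table. The libraries came from wild-type C57BL/6 NSCs with no genetic change, isolated from the SVZs of mice aged 8 to 9 weeks, with 2 female and 2 male mice pooled for each isolation. After at least 3 passages in suspension in bFGF and EGF at 20 ng/mL each, the cells were plated for 16 to 18 h in the same factors and collected as bFGF/EGF-treated NSCs at day 0. For the other conditions EGF was replaced with 20 ng/mL BMP4 (bFGF/BMP4-treated NSCs), or both factors were replaced with 20 ng/mL BMP4 (BMP4-treated NSCs), for 6 days. Each condition had 3 libraries, described as biological replicates, and nothing stated whether these came from separate isolations, so the p-values measure the spread between these libraries. The bFGF/EGF libraries served both comparisons as the control and were collected 6 days earlier, so that treatment and time in culture cannot be told apart there.

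Sorting markers are proteins or sugars at the cell surface that antibodies can bind on living cells. In the adult SVZ, VCAM1 and CD9 have been used to take NSCs, prominin-1 (CD133, product of Prom1) marks NSCs with a primary cilium and also ependymal cells, and CD24 marks ependymal cells and neuroblasts and is usually gated out. Cd81 and Cd151 encode further tetraspanins, small proteins with membrane-spanning helices that organise integrins and other receptors into membrane domains, and CD44 is the main hyaluronan receptor. Not every gene of the set encodes a surface protein. Fut4 encodes a Golgi fucosyltransferase that helps build the Lewis X sugar bound by CD15 antibodies, and Thbs4 encodes a secreted thrombospondin of SVZ astrocytes. RNA was measured, and none of the values below are surface protein.

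Levels are given as FPKM, fragment counts scaled to gene length and library size, which allows levels of different genes to be set side by side. Between 15892854 and 17419822 fragments fell on genes in each library. Differences were tested with limma on log2(FPKM + 0.1) over the 20207 genes that averaged 0.1 FPKM or more across libraries, and every log2 fold change is on that scale, which understates changes of low genes. A gene was called when the Benjamini-Hochberg adjusted p was at most 0.05 and the fold change was at least 2. Sox2, a transcription factor of NSCs, was taken as a label check for the cell type. It was present at 130 to 202 FPKM in bFGF/EGF-treated, 125 to 149 FPKM in bFGF/BMP4-treated and 121 to 146 FPKM in BMP4-treated libraries. Other NSC markers did change. Of 8 on the list, Sox2 included, 5 were called between bFGF/BMP4 and bFGF/EGF (2 higher, 3 lower). Between BMP4 and bFGF/EGF 3 were called (2 higher, 1 lower). The Sox2 level alone therefore does not show that the cell type was unchanged. Because these are bulk libraries, a change in the number of cells expressing a marker and a change in RNA per cell cannot be told apart.

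With the main settings all 9 markers were called between at least 1 pair of conditions, and they did not move as a block. Between bFGF/BMP4-treated and bFGF/EGF-treated NSCs 7 of 9 were called, 3 higher and 4 lower, where 30.6% of all tested genes were called (16.5% higher, 14.1% lower). With a pseudocount of 1 in place of 0.1 only 4 were called there, because the low genes Prom1, Fut4 and Thbs4 no longer passed. Between BMP4-treated and bFGF/EGF-treated NSCs 9 of 9 were called, 6 higher and 3 lower, against 36.6% of all genes (21.3% higher, 15.4% lower). With a pseudocount of 1, Fut4 (log2 -0.35) and Thbs4 (log2 -0.38) fell under the fold threshold in this comparison too. Between BMP4-treated and bFGF/BMP4-treated NSCs 4 of 9 were called, 3 higher and 1 lower, against 13.5% of all genes (8.41% higher, 5.14% lower). The median log2 fold changes of the 9 markers were -0.76, 1.46 and 0.66 in these comparisons, beside 0.06, 0.10 and 0.00 for all tested genes.

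**Figure D1:**
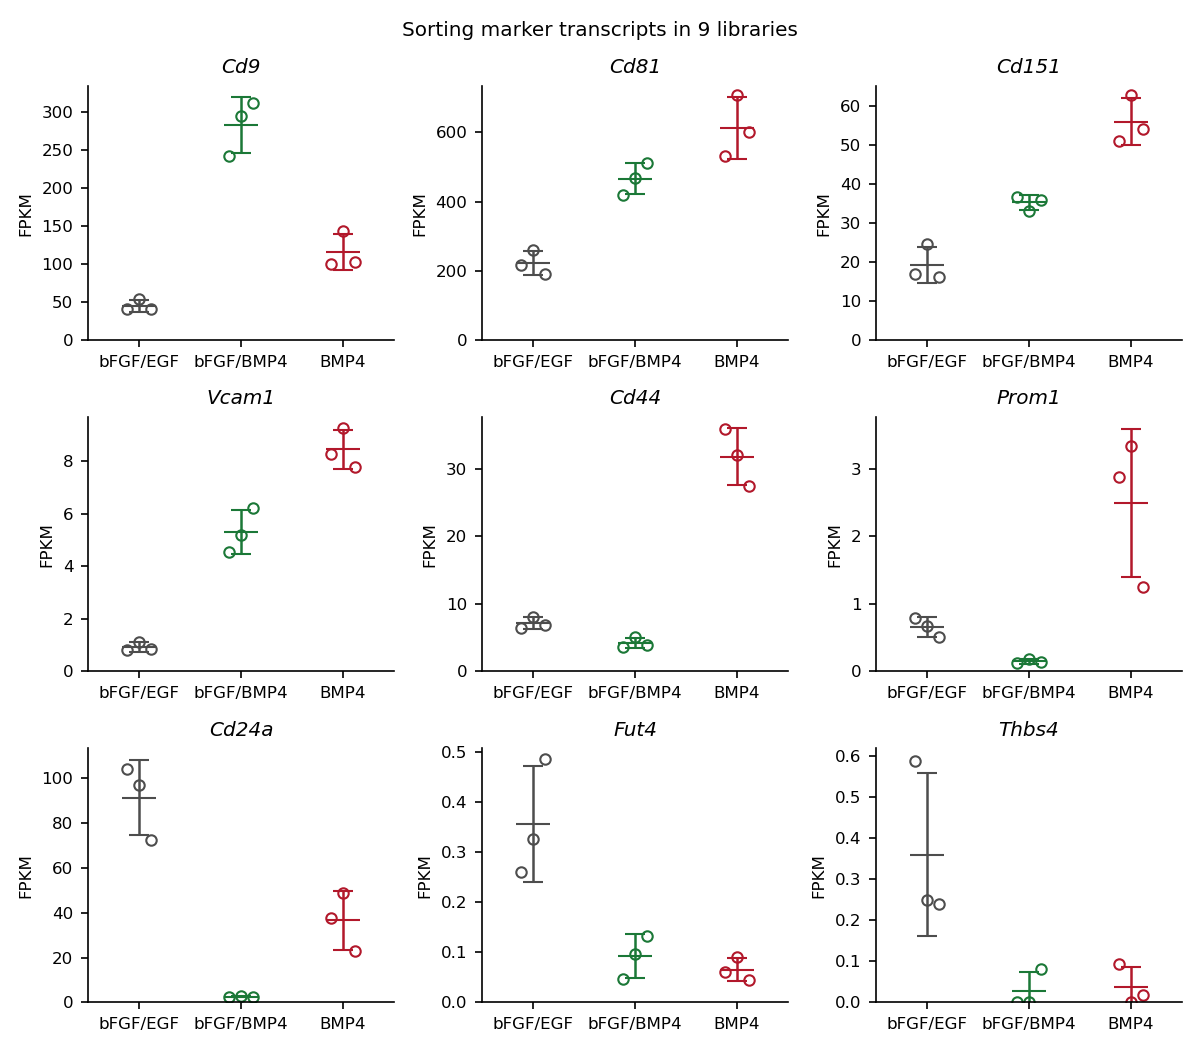
FPKM of the 9 markers (y axis, linear from 0, with its own range in each panel) in the 3 conditions (x axis). Circles are the 3 libraries of a condition, and bars are the mean and SD. Cd9 was highest and Prom1 and Cd24a were lowest in bFGF/BMP4-treated NSCs, Cd44 was highest in BMP4-treated NSCs, and Fut4 and Thbs4 were highest in bFGF/EGF-treated NSCs.

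The 3 tetraspanins were the most abundant surface markers after the switch to BMP4. All are integrin partners, and CD9 and CD81 are close relatives. Their promoters are shown because the genes were all higher in both BMP4 conditions than in bFGF/EGF. RefSeq windows of 250 bases before the transcription start were placed on GRCm39 by exact match. The longest stretch of each that lies outside the annotated exons of the gene is printed 5′ to 3′ on the gene's strand. GC boxes (GGGCGG, bound by Sp family factors, searched on both strands) are in capitals. The stretches are chr6:125471779-125471973 on the minus strand for Cd9, chr7:142606382-142606465 on the plus strand for Cd81 and chr7:141047025-141047255 on the plus strand for Cd151. The Cd81 stretch lies inside the annotated gene, which starts at 142606314. The bases of the Cd81 window before that position, from 142606237, are not printed.
Cd9: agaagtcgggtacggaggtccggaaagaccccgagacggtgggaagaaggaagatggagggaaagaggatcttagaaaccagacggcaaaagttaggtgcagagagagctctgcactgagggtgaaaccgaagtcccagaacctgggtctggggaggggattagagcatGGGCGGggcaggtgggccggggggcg
Cd81: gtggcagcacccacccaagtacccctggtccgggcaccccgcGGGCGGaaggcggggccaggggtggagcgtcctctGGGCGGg
Cd151: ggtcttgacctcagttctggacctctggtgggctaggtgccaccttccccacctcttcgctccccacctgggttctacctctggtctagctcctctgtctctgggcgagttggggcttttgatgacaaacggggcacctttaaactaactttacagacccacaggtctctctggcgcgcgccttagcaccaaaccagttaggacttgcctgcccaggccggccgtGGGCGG
Over the full 250 bases, Cd9 held 2 GC boxes, Cd81 held 3 and Cd151 held 2 at its first start, all within 81 bases of the start. A GC box was present in 33.0% of the 32536 distinct windows of that length in the RefSeq table, which leaves the match a description of these windows. Their CpG counts were 16, 16 and 12, where the median window had 6. These traits were not particular to the rising genes. The window of Thbs4, which was lower in both BMP4 conditions, held 3 GC boxes and 19 CpG. That of Fut4, also lower in both, held 0 GC boxes and 16 CpG. The window at the second Cd151 start held 0 GC boxes and 4 CpG.

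Cd9 was highest in the combination. Its level was 41.8, 54.8 and 40.7 FPKM in bFGF/EGF-treated, 242, 295 and 312 FPKM in bFGF/BMP4-treated, and 100.2, 143 and 103 FPKM in BMP4-treated libraries. The 3 ranges were apart, with bFGF/BMP4 above every other library, a pattern shown by 7.22% of all tested genes. Cd9 rose 6.19-fold with bFGF/BMP4 (log2 2.63 ± 0.18 SE, adjusted p = 2.6e-06) and 2.51-fold with BMP4 alone (log2 1.33 ± 0.18, adjusted p = 0.00016). BMP4-treated NSCs held 2.47-fold less of it than bFGF/BMP4-treated NSCs (log2 -1.30 ± 0.18, adjusted p = 0.00066). With this rise Cd9 went from above 94.6% of the tested genes in bFGF/EGF to above 99.6% in bFGF/BMP4. A processed pseudogene, Cd9-ps on chromosome 7, shares a long stretch with the Cd9 transcript (700 bases at 90.3% identity), so reads could be split between them. It was listed at 0 FPKM in 8 of 9 libraries and at 0.105 FPKM in the other.

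Cd81, a receptor-organising tetraspanin found on most cell types, was the most abundant of the 9 markers in every condition. The libraries measured 217, 261 and 193 FPKM in bFGF/EGF, 420.3, 469 and 512 FPKM in bFGF/BMP4 and 532, 708 and 600.3 FPKM in BMP4. The order was rising with no overlap between conditions, as for 7.71% of tested genes. Cd81 rose 2.10-fold with bFGF/BMP4 (log2 1.07 ± 0.18, adjusted p = 0.0007), just past the fold threshold, which it missed with limma-voom (log2 0.95) and without bFGF/EGF replicate 3 (log2 0.97), and 2.75-fold with BMP4 (log2 1.46 ± 0.18, adjusted p = 7.1e-05). Its difference between the BMP4 conditions was not called (log2 0.39, 95% interval -0.01 to 0.78, adjusted p = 0.16). The whole gene is overlapped by an antisense noncoding gene, R74862, whose mean FPKM was 2.08, 5.2 and 7.15 in the 3 conditions, and since the strand setting of the counting was not stated, reads of the pair may not be separated.

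Cd151, the tetraspanin bound to laminin-binding integrins, measured 17.1, 24.6 and 16.2 FPKM in bFGF/EGF, 36.7, 33.2 and 36.0 FPKM in bFGF/BMP4 and 51.1, 62.7 and 54.2 FPKM in BMP4. It also stood in rising order without overlap. The rise with BMP4 alone was 2.93-fold (log2 1.55 ± 0.16, adjusted p = 2.4e-05). With bFGF/BMP4 the difference was 1.85-fold (log2 0.89 ± 0.16, adjusted p = 0.0012) and between the BMP4 conditions 1.58-fold (log2 0.66 ± 0.16, adjusted p = 0.015), both under the fold threshold. Cd151 shares 801 bases with Polr2l on the opposite strand, whose mean FPKM was 20.1, 20.1 and 31.4, so a part of the Cd151 signal may belong to that gene.

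Within a library the balance of the 3 tetraspanins moved with the condition. The Cd9/Cd81 ratio of FPKM was 0.192 to 0.211 in bFGF/EGF, 0.575 to 0.629 in bFGF/BMP4 and 0.172 to 0.202 in BMP4. The combination thus stood apart from both other conditions, whose ratios overlapped. Cd9 made up 34.6% to 37.0% of the summed FPKM of the 3 genes in bFGF/BMP4, against 15.1% to 16.3% in bFGF/EGF and 13.6% to 15.7% in BMP4. The Cd151/Cd81 ratio was 0.0789 to 0.0945 in bFGF/EGF, which overlapped both other conditions, while bFGF/BMP4 at 0.0702 to 0.0874 lay just below BMP4 at 0.0886 to 0.0961. With 3 libraries against 3, an exact permutation test of a single ratio cannot go below a two-sided p of 0.10, and none was run.

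**Figure D2:**
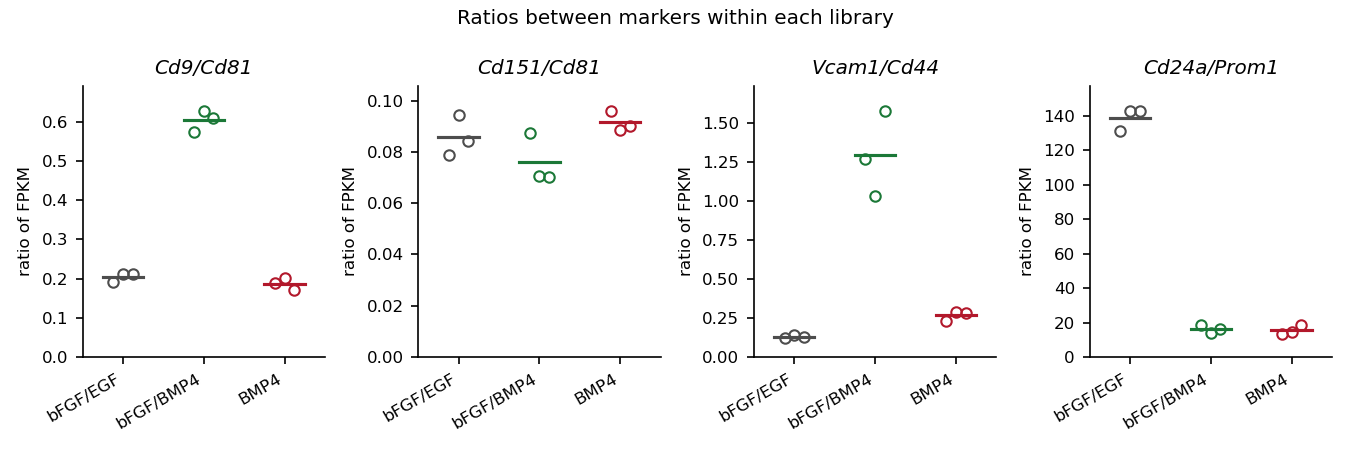
Ratios of FPKM between pairs of markers within each library (y axes, linear from 0) by condition (x axes). Circles are libraries and lines are means. The Cd9/Cd81 and Vcam1/Cd44 ratios stood highest in bFGF/BMP4-treated NSCs, the Cd24a/Prom1 ratio stood highest in bFGF/EGF-treated NSCs at 131 to 143, and the Cd151/Cd81 ratio of bFGF/EGF-treated NSCs overlapped both other conditions, which lay narrowly apart from each other (highest bFGF/BMP4 library 0.0874, lowest BMP4 library 0.0886).

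Other tetraspanins were taken as a family list of 28 genes, of which 22 were tested. Of these 9 were called between bFGF/BMP4 and bFGF/EGF (4 higher, 5 lower, median log2 -0.09), 11 between BMP4 and bFGF/EGF (9 higher, 2 lower, median 0.81) and 10 between BMP4 and bFGF/BMP4 (9 higher, 1 lower, median 0.54). Tspan7, a neural tetraspanin, was the family member that fell with Cd9 in the last comparison. It measured 15.4 to 17.4 FPKM in bFGF/EGF, 107 to 129.8 FPKM in bFGF/BMP4 and 27.0 to 37.9 FPKM in BMP4, and was 3.43-fold lower with BMP4 than with bFGF/BMP4 (log2 -1.78 ± 0.15, adjusted p = 2.9e-05). Tspan15, a partner of the protease ADAM10, changed the other way, from a mean of 3.12 FPKM in bFGF/EGF to 0.574 in bFGF/BMP4 and 11.4 in BMP4, and was 17.1-fold higher in BMP4 than in bFGF/BMP4 (log2 4.10 ± 0.17, adjusted p = 1.2e-06). Tspan17 stood at 2.76, 3.01 and 22.0 FPKM and rose 7.13-fold in that comparison (adjusted p = 3e-05).

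Other abundant relatives moved in several directions. Cd63, the tetraspanin of late endosomes and exosomes, was 3.02-fold higher in BMP4 than in bFGF/BMP4 (143 against 46.8 FPKM, adjusted p = 0.00021), and Tspan14 (2.97-fold), Tspan9 (2.96-fold) and Tspan4 (2.75-fold) were also called higher. Tspan3 rose with both treatments, from 95.6 to 253 and 308 FPKM, and was not called between them (log2 0.27, adjusted p = 0.25). Tspan13 fell with both, from 27.8 to 4.94 and 7.05 FPKM. Tspan5, Tspan6, Tspan12 and Tspan31, each with a mean of at least 20 FPKM in some condition, were called in no comparison. Summed over the family, the 3 markers carried 39.2% to 41.8% of tetraspanin FPKM in bFGF/EGF, 53.3% to 56.1% in bFGF/BMP4 and 47.8% to 49.3% in BMP4.

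**Figure D3:**
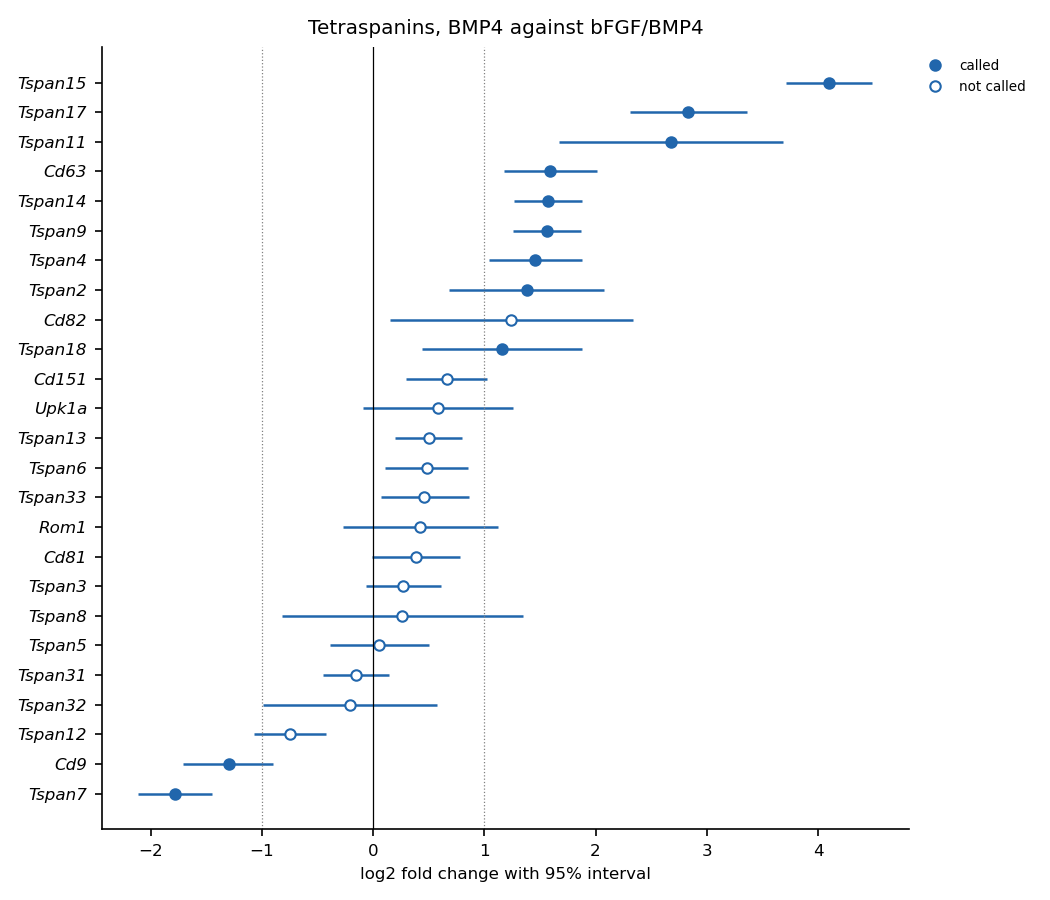
Log2 fold change (x axis) of the 25 tested tetraspanins between BMP4-treated and bFGF/BMP4-treated NSCs, with the 95% interval as a line. Filled points are called (adjusted p at most 0.05 and at least 2-fold), open points are not, and dotted lines mark 2-fold. Cd9 and Tspan7 are the called points to the left of 0.

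Among membrane partners of these tetraspanins, 9 of 12 listed genes were tested, and 1 (0 higher), 2 (2 higher) and 4 (3 higher) were called in the 3 comparisons in the order above. Itga7, a laminin-binding integrin chain and partner of CD151, fell 10.4-fold with bFGF/BMP4 (10.5 to 0.886 FPKM, adjusted p = 2.2e-06). At 6.93 FPKM in BMP4 it was 7.13-fold higher than in bFGF/BMP4 (adjusted p = 2.4e-05). It was not called between BMP4 and bFGF/EGF (log2 -0.55, adjusted p = 0.065). Igsf3, an immunoglobulin-type partner, was 7.72-fold higher in BMP4 than in bFGF/BMP4 (6.6 against 0.762 FPKM, adjusted p = 6.2e-05).

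Vcam1 and Cd44 encode the adhesion receptors of the set. VCAM1 is an immunoglobulin-type molecule that binds α4 integrins and holds adult NSCs at the ventricular surface. Its transcript measured 0.796, 1.13 and 0.868 FPKM in bFGF/EGF, 4.55, 5.17 and 6.22 FPKM in bFGF/BMP4 and 8.28, 9.25 and 7.78 FPKM in BMP4. The 3 ranges did not overlap and rose in that order, as for 7.71% of tested genes. Vcam1 rose 5.25-fold with bFGF/BMP4 (log2 2.39 ± 0.18, adjusted p = 3.7e-06) and 8.33-fold with BMP4 (log2 3.06 ± 0.18, adjusted p = 5.6e-07). BMP4 alone exceeded the combination 1.59-fold, under the fold threshold (log2 0.66 ± 0.18, adjusted p = 0.022).

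VCAM1 is bound by integrins on neighbouring cells. Itga4, the α4 integrin chain and a gene picked after its values were seen, measured 12.3 to 19.5 FPKM in bFGF/EGF, 0.280 to 0.321 in bFGF/BMP4 and 0.0309 to 0.0661 in BMP4. It fell 42.6-fold with bFGF/BMP4 (adjusted p = 1.9e-07) and 114-fold with BMP4 (adjusted p = 3e-08). Itga9, another α chain that binds VCAM1, overlapped between bFGF/BMP4 and bFGF/EGF (2.13 against 1.33 FPKM, log2 0.59, adjusted p = 0.09) and was 4.15-fold lower in BMP4 than in bFGF/BMP4 (0.420 against 2.13 FPKM, adjusted p = 0.00038), and so was the neural adhesion molecule Chl1 (6.64-fold, 1.36 against 9.47 FPKM, adjusted p = 2.6e-05). In the whole list of VCAM1-binding integrins and immunoglobulin-type adhesion molecules 10 of 16 genes were tested. There 7 were called with bFGF/BMP4 (5 higher), 7 with BMP4 (3 higher), and 4 between the BMP4 conditions (0 higher), with median log2 fold changes of 0.80, -0.67 and -0.71.

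Cd44 separated the BMP4 conditions in every library. It measured 6.42, 8.08 and 6.87 FPKM in bFGF/EGF, 3.59, 5.03 and 3.94 FPKM in bFGF/BMP4 and 35.9, 32.0 and 27.4 FPKM in BMP4. The BMP4 libraries were above all others and the bFGF/BMP4 libraries below all others, without overlap (14.1% and 6.14% of tested genes had these patterns). Cd44 rose 4.40-fold with BMP4 alone (log2 2.14 ± 0.16, adjusted p = 2.9e-06), and BMP4 exceeded bFGF/BMP4 7.46-fold (log2 2.90 ± 0.16, adjusted p = 3.9e-06). The combination was 1.69-fold below bFGF/EGF (log2 -0.76 ± 0.16, adjusted p = 0.0031), under the fold threshold. Within libraries the Vcam1/Cd44 ratio was 0.124 to 0.14 in bFGF/EGF, 1.03 to 1.58 in bFGF/BMP4 and 0.231 to 0.289 in BMP4, so that Vcam1 FPKM exceeded Cd44 FPKM in the combination and in no other condition. The 250 bases before the Cd44 start are printed as a counterpart to the tetraspanin windows, at chr2:102732011-102732260 on the minus strand of GRCm39.
Cd44: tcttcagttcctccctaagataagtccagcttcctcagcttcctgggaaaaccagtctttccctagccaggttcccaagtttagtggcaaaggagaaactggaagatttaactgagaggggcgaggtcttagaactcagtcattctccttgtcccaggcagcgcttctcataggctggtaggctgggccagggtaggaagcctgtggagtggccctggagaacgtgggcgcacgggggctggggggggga
This window held no GC box, no TATAAA, no CCAAT, no TGANTCA (AP-1) and no GGCGCC (a BMP-type SMAD element) on either strand, and 5 CpG.

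Genes of hyaluronan handling and CD44 signalling were tested for 16 of 18 genes in the table. With bFGF/BMP4 10 were called (4 higher), with BMP4 11 (6 higher), and between the BMP4 conditions 6 (5 higher). Spp1, which encodes the CD44 ligand osteopontin, repeated the low point of the combination at 26.3 to 29.3, 2.64 to 2.97 and 15.3 to 26.1 FPKM in the 3 conditions, and was 6.88-fold higher with BMP4 than with bFGF/BMP4 (log2 2.78 ± 0.17, adjusted p = 6.9e-06). Hmmr, a hyaluronan-binding protein of the mitotic spindle, fell to 3.97 and 0.824 FPKM from 11.4 FPKM and was 4.31-fold lower in BMP4 than in bFGF/BMP4 (adjusted p = 0.0012).

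Prom1 and Cd24a, like Cd44, had their low point in bFGF/BMP4-treated NSCs. Prom1 measured 0.795, 0.679 and 0.505 FPKM in bFGF/EGF, 0.121, 0.191 and 0.142 FPKM in bFGF/BMP4 and 2.88, 3.34 and 1.25 FPKM in BMP4. The ranges were apart, with BMP4 above and bFGF/BMP4 below all other libraries (14.1% and 6.14% of tested genes had these patterns). BMP4 replicate 3 was the lowest of its condition by far. Prom1 fell 3.00-fold with bFGF/BMP4 (log2 -1.59 ± 0.36, adjusted p = 0.0048, not called with a pseudocount of 1 at adjusted p = 0.073) and rose 3.20-fold with BMP4 (log2 1.68 ± 0.36, adjusted p = 0.003). BMP4 exceeded bFGF/BMP4 9.61-fold (log2 3.26 ± 0.36, adjusted p = 0.00016). The fragment totals over 3 libraries were 238, 50 and 871, so the level in the combination is known from few fragments. Since the pseudocount weighs on a gene this low, the fragment ratio of BMP4 to bFGF/BMP4 was also taken and was 16.4, with an exact 95% interval of 12.3 to 22.3 that covers counting error only.

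Cd24a had the widest span of the set. Its libraries measured 104, 97.0 and 72.2 FPKM in bFGF/EGF, 2.27, 2.70 and 2.32 FPKM in bFGF/BMP4 and 37.6, 48.9 and 23.1 FPKM in BMP4. No ranges overlapped, with bFGF/EGF above and bFGF/BMP4 below all other libraries (21.6% and 6.14% of tested genes had these patterns). BMP4 replicate 3 was again the lowest of its condition. It fell 35.7-fold with bFGF/BMP4 (log2 -5.16 ± 0.25, adjusted p = 2.7e-07) and 2.58-fold with BMP4 (log2 -1.37 ± 0.25, adjusted p = 0.001). BMP4 exceeded bFGF/BMP4 13.9-fold (log2 3.79 ± 0.25, adjusted p = 8.8e-06). In rank it went from above 97.7% of tested genes in bFGF/EGF to above 50.2% in bFGF/BMP4 and 93.3% in BMP4. Of the Cd24a transcript 83.3% was covered by 2 close matches elsewhere in the genome. The longest lies on chromosome 14 (97.3% identity over 1262 bases), where the processed pseudogene Gm6212 was listed at 0 FPKM in 9 of 9 libraries. How reads with several matches were counted was not stated. Cd24a also overlaps Mtres1 on the opposite strand, at 4.52, 4.98 and 5.83 FPKM, which is above the Cd24a level in bFGF/BMP4.

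Both genes also mark ependymal cells, and ependymal markers were higher with them in BMP4 than in bFGF/BMP4. Among the ependymal markers 9 had values and 7 were tested, and 7 of 7 were called higher in BMP4 than in bFGF/BMP4, with Foxj1, the transcription factor of motile cilia, at 6.13 to 10.8, 9.44 to 10.4 and 51.4 to 61.2 FPKM in the 3 conditions (5.45-fold between the BMP4 conditions, adjusted p = 1.6e-05). The summed FPKM of the list was 9.17 to 13.8 in bFGF/EGF, 11.8 to 12.5 in bFGF/BMP4 and 62.1 to 76.1 in BMP4. BMP4 replicate 3, lowest of its condition in Prom1 and Cd24a, was also lowest in this sum at 62.1. The sum was highest in BMP4 replicate 1 at 76.1, whereas Prom1 (3.34 FPKM) and Cd24a (48.9 FPKM) were highest in replicate 2, where the sum was 69.1. Tmem212 was at 0 in every library. Against bFGF/EGF the list and Cd24a went opposite ways with BMP4, where 7 of 7 tested markers were called higher (median log2 2.41) and Cd24a was called lower (log2 -1.37). With bFGF/BMP4, where Prom1 and Cd24a fell, 2 of the 7 were called lower, Dynlrb2 and Cfap126 (2.23-fold each, adjusted p = 0.032 and 0.03), and 0 higher, while the sum, most of it Foxj1, overlapped with that of bFGF/EGF. Neuroblast and neuron markers, which CD24 also accompanies, summed to 28.4 to 35.2, 33.0 to 38.1 and 127 to 209 FPKM, with 5 of 8 tested genes called between the BMP4 conditions (4 higher). Most of the sum in BMP4 was Tubb3 at 101 to 179 FPKM, while Dcx was at 0.342 to 1.99 FPKM there. Rbfox3 was the gene called lower in BMP4 than in bFGF/BMP4 (2.77-fold, adjusted p = 0.0097). The part of these markers in the Prom1 and Cd24a levels was not tested.

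**Figure D4:**
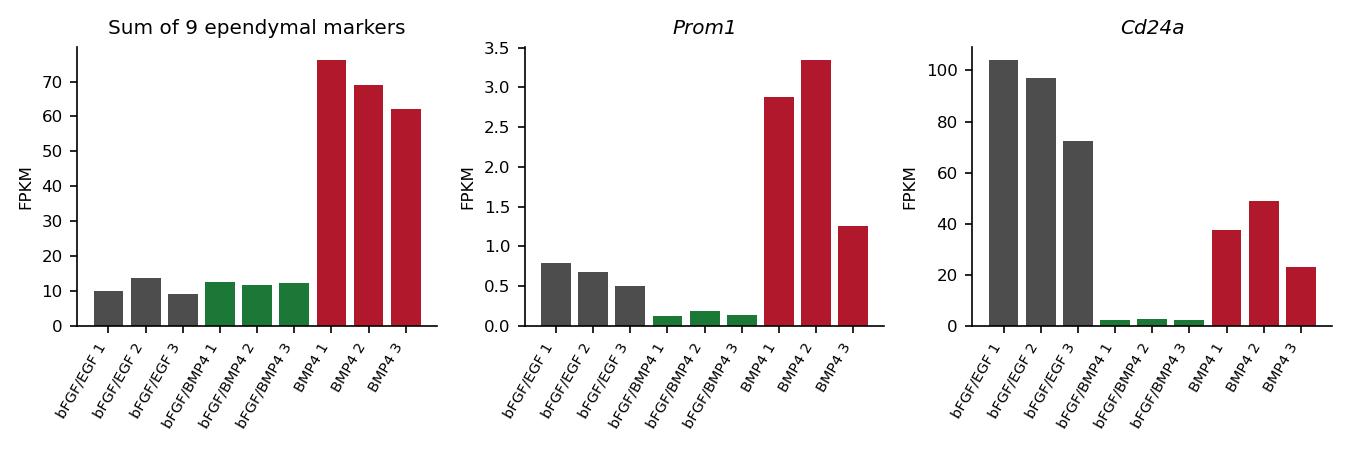
Summed FPKM of 9 ependymal markers, and FPKM of Prom1 and Cd24a (y axes, linear from 0), in each of the 9 libraries (x axes, grey bFGF/EGF, green bFGF/BMP4, red BMP4). The sum stays between 9.17 and 13.8 in the first 6 libraries while Prom1 and Cd24a drop in the middle 3, and all 3 panels are higher in BMP4 than in bFGF/BMP4.

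The Cd24a/Prom1 ratio placed the BMP4 conditions together, at 14.2 to 18.7 in bFGF/BMP4 and 13.1 to 18.5 in BMP4, against 131 to 143 in bFGF/EGF. Relatives of prominin and proteins of cholesterol-rich membrane protrusions were called for 2 of 7 tested genes with bFGF/BMP4 (1 higher), 4 with BMP4 (3 higher) and 4 between the BMP4 conditions (3 higher). Prom2, the only other prominin, was at no more than 0.142 FPKM in any library. Ttyh1, a tweety-family membrane protein of neural progenitors, reached 2.76, 9.03 and 92.7 FPKM and was 10.2-fold higher in BMP4 than in bFGF/BMP4 (adjusted p = 2.8e-06), whereas Ttyh3 was 2.76-fold lower there (52.6 against 145 FPKM, adjusted p = 7.1e-05). Flot1, a lipid-raft scaffold, was 2.07-fold higher (adjusted p = 0.0042). Among other GPI-anchored proteins and partners of CD24, 5 of 10 were tested and 3 were called between the BMP4 conditions (3 higher), among them the complement inhibitor Cd59a at 0.0774, 1.31 and 55.7 FPKM (40.9-fold, adjusted p = 1.2e-06) and the prion protein gene Prnp at 77.4, 109 and 455 FPKM (4.14-fold, adjusted p = 1.8e-05).

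Fut4 and Thbs4 were near the detection limit after the switch to BMP4. Fut4 measured 0.260, 0.326 and 0.486 FPKM in bFGF/EGF, 0.0458, 0.0960 and 0.133 FPKM in bFGF/BMP4 and 0.0605, 0.0909 and 0.0446 FPKM in BMP4. The bFGF/EGF libraries were above all others, a pattern of 21.6% of tested genes, and the BMP4 conditions overlapped. These levels rest on 74, 17 and 13 fragments in the 3 conditions. Fut4 fell with bFGF/BMP4 (log2 -1.25 ± 0.37, adjusted p = 0.018) and with BMP4 (log2 -1.45 ± 0.37, adjusted p = 0.0076). By fragments bFGF/EGF exceeded bFGF/BMP4 3.98-fold (exact 95% interval 2.32 to 7.19) and BMP4 5.52-fold (3.04 to 10.8). These intervals cover counting error only, not the spread between libraries. The call with bFGF/BMP4 was lost without bFGF/EGF replicate 3 (adjusted p = 0.07) and without bFGF/BMP4 replicate 1 (adjusted p = 0.06). Between the BMP4 conditions the difference was not called (log2 -0.20, 95% interval -1.02 to 0.63, adjusted p = 0.77).

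Fut4 is not the only enzyme that can build Lewis X. Fut9, a brain enzyme with the same activity and a gene picked after its values were seen, was more abundant than Fut4 in every library, at 2.82 to 5.03 FPKM in bFGF/EGF, 3.66 to 5.19 in bFGF/BMP4 and 2.98 to 4.03 in BMP4, with all conditions overlapping. In the list of other fucosyltransferases and GDP-fucose supply 9 of 12 genes in the table were tested, and limma called 0 in each comparison, while 5, 4 and 1 passed the adjusted p alone. The median log2 fold changes of the list were 0.15, -0.26 and -0.25. By the adjusted p alone 48.6%, 54.9% and 21.1% of all tested genes passed.

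Thbs4, a secreted matrix protein, measured 0.590, 0.250 and 0.241 FPKM in bFGF/EGF. It was at 0, 0 and 0.0827 FPKM in bFGF/BMP4 and at 0.0936, 0 and 0.0184 FPKM in BMP4. The fragment totals were 60, 4 and 6, with 33 of the 60 in bFGF/EGF replicate 1. Thbs4 fell with bFGF/BMP4 (log2 -1.83 ± 0.48, adjusted p = 0.0096) and with BMP4 (log2 -1.72 ± 0.48, adjusted p = 0.011). By fragments bFGF/EGF exceeded the BMP4 libraries 9.69-fold (exact 95% interval 4.20 to 27.5). That interval covers counting error only, not the spread between libraries. Without bFGF/EGF replicate 1 the gene averaged too low to be tested, and with a pseudocount of 1 neither Thbs4 nor Fut4 passed the fold threshold. A difference between the BMP4 conditions was not detectable at this depth (log2 0.11, 95% interval -0.96 to 1.18, adjusted p = 0.91).

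Thbs1, Thbs2 and Thbs3 had a higher FPKM than Thbs4 in every library, whereas Comp, the fifth thrombospondin, was at 0 to 0.0213 FPKM in bFGF/EGF, below Thbs4. The list with their receptors had 9 of 10 genes tested, of which 4 (3 higher), 3 (2 higher) and 5 (3 higher) were called in the 3 comparisons. Thbs1, the matrix protein that activates latent TGF-β, stood at 2.23, 3.39 and 16.5 FPKM and was 4.85-fold higher in BMP4 than in bFGF/BMP4 (log2 2.28 ± 0.32, adjusted p = 0.00064). The receptor integrin chain Itgav was highest in bFGF/BMP4, like Cd9, but unlike Cd9 was lower in BMP4 than in bFGF/EGF without reaching the fold threshold (log2 -0.60, adjusted p = 0.017). It stood at 13.3 to 16.6, 39.7 to 62.9 and 8.78 to 11.2 FPKM, and was 5.42-fold lower in BMP4 than in bFGF/BMP4 (log2 -2.44 ± 0.18, adjusted p = 1.6e-05).

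**Figure D5:**
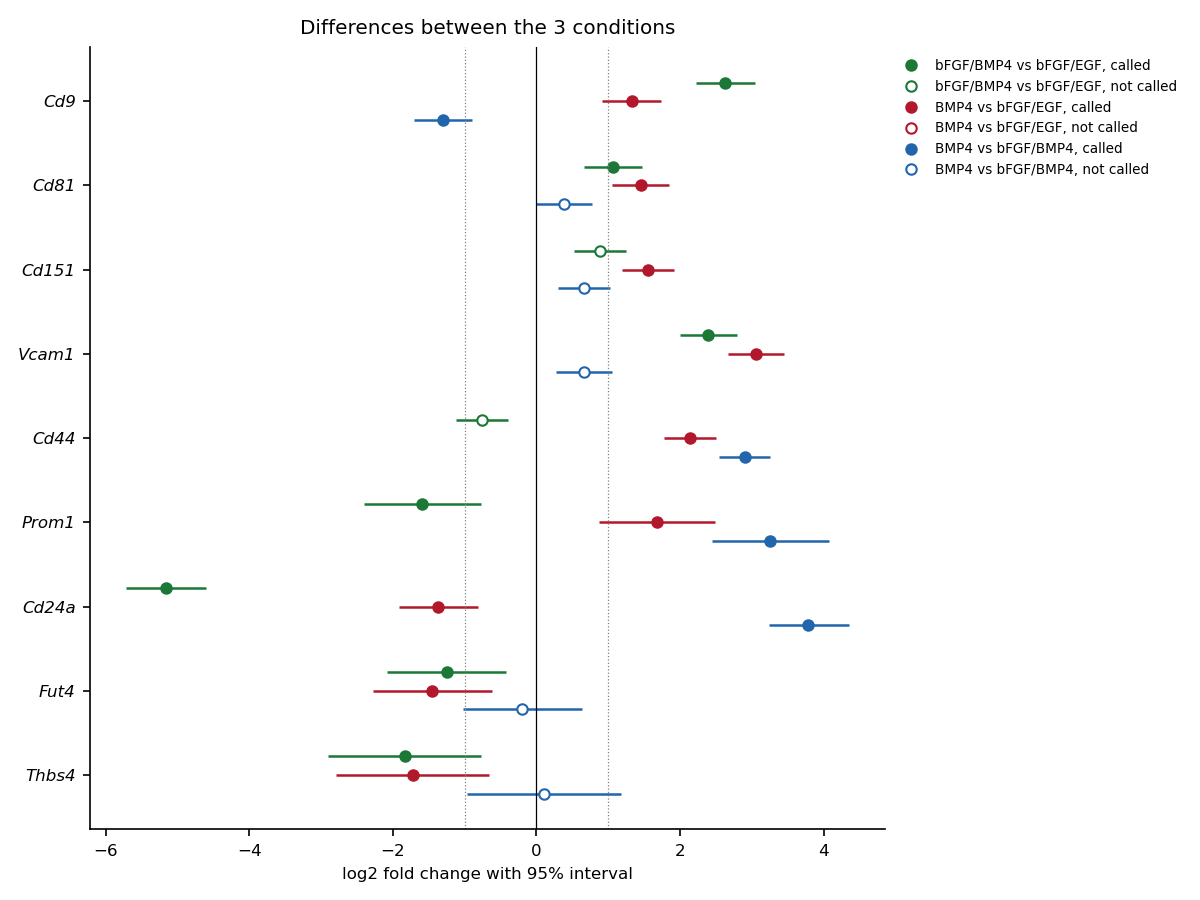
Log2 fold change (x axis) of each marker in the 3 comparisons with its 95% interval (lines). Filled points are called (adjusted p at most 0.05 and at least 2-fold), open points are not, and dotted lines mark 2-fold. Cd24a spans -5.16 to 3.79, and Cd9 is the only marker below 0 with a call between BMP4 and bFGF/BMP4 (blue).

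The order of the markers by FPKM changed with the condition. In bFGF/EGF it ran Cd81, Cd24a, Cd9, Cd151, Cd44, Vcam1, Prom1, Thbs4 and Fut4, and the library ranges of Prom1 and Thbs4 and of Thbs4 and Fut4 overlapped. With bFGF/BMP4 it ran Cd81, Cd9, Cd151, Vcam1, Cd44, Cd24a, Prom1, Fut4 and Thbs4, with overlap between Vcam1 and Cd44, Prom1 and Fut4, and Fut4 and Thbs4. With BMP4 it ran Cd81, Cd9, Cd151, Cd24a, Cd44, Vcam1, Prom1, Fut4 and Thbs4, where Cd24a overlapped Cd44 and Fut4 overlapped Thbs4.

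Genes with the most similar level pattern were sought among the 7899 genes averaging 5 FPKM or more, by Pearson's r of log2(FPKM + 0.1) over the 9 libraries. The 9 points form 3 conditions, so a high r reflects a like order of condition means and is a description without a test. For Cd9 the nearest were Mtch1 (r = 0.996), Elovl5 (0.994) and Mylip (0.990). Nearest to Cd24a were Zcchc12 (0.994), Necab2 (0.992) and Phgdh (0.990), and to Cd44 Timp2 (0.992), Gpr37l1 (0.990) and Igfbp7 (0.984). For Vcam1 they were Phyh, Pea15a and Abhd4 (0.996 each), for Prom1 Ctxn1 (0.986), Cplx1 (0.982) and Csnk1a1 (0.980), for Cd81 Decr1 (0.994), Mcam (0.993) and Tafa5 (0.992), and for Cd151 Hcfc1r1 (0.992), Ephx1 (0.991) and Fbxo44 (0.991).

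Further genes used to sort SVZ cells, from a list of 15 tested genes, were called for 10 with bFGF/BMP4 (6 higher), 9 with BMP4 (6 higher) and 6 between the BMP4 conditions (5 higher). Gfap, the intermediate filament gene whose promoter drives reporters used to sort SVZ astrocytes and NSCs, had the largest change of that list at 0.0600 to 0.134, 16.8 to 21.5 and 2181 to 3038 FPKM (131-fold between the BMP4 conditions, adjusted p = 3.5e-08). Nes, the intermediate filament gene of dividing progenitors, had the Cd24a shape, at 145 to 157, 2.96 to 3.94 and 10.7 to 20.7 FPKM, and was 4.23-fold higher in BMP4 than in bFGF/BMP4 (adjusted p = 0.0001).

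Genes of the gates that leave cells out were also measured. Of 10 such genes 5 were tested, and 4 were called with bFGF/BMP4 (1 higher), 4 with BMP4 (2 higher) and 3 between the BMP4 conditions (3 higher). Ptprc, the CD45 gene of leukocytes, was at no more than 0.0135 FPKM and the endothelial Cdh5 at no more than 0.0148 FPKM in any library. Kdr, a receptor of endothelial cells, reached 0.152, 1.18 and 3.31 FPKM on average (2.68-fold between the BMP4 conditions, adjusted p = 0.0054), and the macrophage gene Cd68 2.22, 0.344 and 1.32 FPKM (3.03-fold, adjusted p = 0.035). Summed over their lists, 8 microglia markers came to no more than 1.75 FPKM and 9 endothelial and mural markers to no more than 5.66 FPKM in any library.

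The label checks and the remaining cell type markers stood as follows. BMP target genes were called higher for 12 of 12 with each BMP4 treatment. FGF target genes were called lower for 5 of 14 with bFGF/BMP4 (0 higher), 11 with BMP4 (1 higher) and 10 between the BMP4 conditions (2 higher). Proliferation markers fell for 8 of 8 with either treatment and were lower for 7 of 8 in BMP4 than in bFGF/BMP4. Against bFGF/EGF, mature astrocyte markers were called for 9 of 10 with bFGF/BMP4 (8 higher) and 10 with BMP4 (8 higher). Their summed FPKM was 219 to 295 in bFGF/EGF, 1411 to 1548 in bFGF/BMP4 and 2073 to 2221 in BMP4. Oligodendrocyte precursor markers were called for 5 of 6 with bFGF/BMP4 (0 higher) and 6 with BMP4 (0 higher). Between the BMP4 conditions 6 of 10 mature astrocyte markers (4 higher), 3 of 8 NSC markers (3 higher), 2 of 6 oligodendrocyte precursor markers (0 higher), 1 of 3 tested oligodendrocyte markers (1 higher), 1 of 2 tested microglia markers (1 higher) and 2 of 3 tested endothelial and mural markers (2 higher) were called. The part of these markers in the levels of the 9 sorting markers was not tested.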

How the data were processed

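RNA of cultured mouse NSCs was sequenced in paired ends in 9 libraries. Per the labels, the authors cleaned reads with fastp 0.19.7, aligned them to mm39 (GRCm39) with HISAT2 2.0.5, counted genes with featureCounts 1.5.0-p3 and deposited FPKM. The annotation release, strand setting, treatment of multiply matched reads and FPKM program are not given in the sources used here. Symbols came from GENCODE vM39 (54749 of 55704 identifiers matched). Whole fragment numbers were rebuilt from the FPKM values for depth and exact counting intervals.

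Groups followed the treatment label. Genes averaging 0.1 FPKM or more were tested on log2(FPKM + 0.1) with limma 3.58.1 (trend, R 4.3.3) over all 9 libraries, with Benjamini-Hochberg adjustment. The test was checked on simulated data. Alternatives were a pseudocount of 1, other filters and scalings, limma-voom on fragments, a replicate block, 2 groups at a time, no fold threshold and leaving out each library. The 9 genes, the family and marker lists and these tests were chosen with earlier results of these data known. Genes named beyond the 9 were, from each list, the 2 with the largest called change between BMP4 and bFGF/BMP4 at a mean of at least 1 FPKM, and relatives with a group mean of at least 20 FPKM. Itga4, Fut9, Sox2, Ptprc, Cdh5, Prom2, Tmem212, Cfap126, Dcx, Rbfox3, Thbs2, Thbs3 and Comp were named outside this rule. So were overlapping genes, pseudogenes and the genes of similar level pattern. Promoters came from RefSeq (GRCm38.p6) and were read for 7 of 9 genes. Python 3.11.15, pandas 2.3.3, numpy 2.4.6, scipy 1.17.1 and matplotlib 3.10.9 were used.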

Additional observations from a re-analysis of the deposited data

How the results depend on the processing

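Over the 9 markers and 3 comparisons, the alternatives kept direction and side of the threshold for 485 of 504 values. With a pseudocount of 1, 4 markers instead of 7 were called between bFGF/BMP4 and bFGF/EGF, since Prom1 (log2 -0.52, adjusted p = 0.073), Fut4 (-0.31) and Thbs4 (-0.40) no longer passed, and with BMP4 the changes of Fut4 and Thbs4 shrank to -0.35 and -0.38. A larger pseudocount shrinks changes of low genes by construction. Cd81 with bFGF/BMP4 stood under the fold threshold with limma-voom (0.95) and without bFGF/EGF replicate 3 (0.97), and Cd151 reached it with quantile normalization (1.00) and without bFGF/EGF replicate 2 (1.08). Leaving out 1 library at a time gave 5 to 8, 8 to 9 and 4 markers called in the 3 comparisons. Requiring a mean of 1 FPKM removed Fut4 and Thbs4.

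Quantile normalization moved the median of all tested genes with BMP4 from 0.10 to -0.03. Small uncalled differences changed sign. With quantile normalization these were Thbs4 (-0.11, BMP4 against bFGF/BMP4), Tspan31 (0.08) and Etv4 (0.09) with bFGF/BMP4, and Flot2 (0.01) and Vim (-0.03) with BMP4, while Ttyh3 (-0.03, limma-voom) and Tspan5 (-0.02, TPM) did so elsewhere. Leaving out 1 library at a time, the ranges that crossed 0 were -0.01 to 0.34 for Tspan17, -0.12 to 0.06 for Tspan31, -0.04 to 0.21 for Ttyh3, -0.02 to 0.35 for Flot1, -0.11 to 0.06 for Etv4, -0.24 to 0.02 for Olig1 and -0.04 to 0.36 for Fut9 with bFGF/BMP4, -0.18 to 0.05 for Flot2 and -0.36 to 0.05 for Fut9 with BMP4, and -0.17 to 0.40 for Thbs4 and -0.18 to 0.20 for Tspan5 between the BMP4 conditions.

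The replicate numbers of the labels were not taken as pairs, since same-numbered libraries of different conditions deviated together with correlations from -0.084 to 0.125. A fit with the replicate block called 7, 9 and 4 markers, as without it, with Cd9 at 2.63, 1.33 and -1.30. Over all genes it called 6127, 7383 and 2612, against 6174, 7400 and 2738. The values of Fut4 and Thbs4 after BMP4 are limited by depth.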
